A study of Homo sapiens with 8 samples.

Results

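The regions described here are γH2AX peaks at the ends of chromosomes 1 to 22 in A2780 cells. A peak was taken when its midpoint lay within 1 Mb of a chromosome end of the hg19 build. The long-arm ends of chromosomes 4 and 10 were left out, as were the short-arm sides of the acrocentric chromosomes 13, 14, 15, 21 and 22, so 37 ends remained (17 short-arm and 20 long-arm ends). This position rule took 511 of 17416 regions of the Pt-ttpy list, 610 of 25132 regions of the cisplatin list and 255 of 9487 regions of the untreated list. Together these are 1376 of 52035 regions on chromosomes 1 to 22.

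A2780 is a human ovarian carcinoma cell line, and all samples are of that line. The groups were Pt-ttpy, cisplatin and untreated cells, with 2 samples each. Pt-ttpy is a platinum compound known to bind G-quadruplex DNA, and cisplatin is a platinum drug that crosslinks DNA. Treatment lasted 96 hours, with either compound at the dose the labels call IC80. A further pair of samples was untreated input chromatin without immunoprecipitation, not analysed here.

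Telomeres are arrays of a short G-rich repeat that cap chromosomes, and their single-stranded or looped G-rich strand can fold into G-quadruplexes. The subtelomere is the belt of sequence next to that array. In humans it is a patchwork of blocks copied between chromosome ends, with gene families and pseudogenes repeated on many arms, followed inward by sequence found on 1 chromosome. γH2AX is histone H2AX phosphorylated around DNA breaks, and it also marks telomeres that have lost their cap. The telomere array itself is largely absent from the hg19 assembly, so the values below mainly describe the sequence next to it. Whether the outermost regions hold telomere repeat was not tested. Short reads from blocks that are nearly identical on several ends cannot always be assigned to the right end, and the handling of such reads is not stated.

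Each group had 1 deposited list, so the values have no replicates and no test between conditions was made. The labels tie both samples of a group to that list. The labels' names for the drug lists also name the untreated cells, and whether those cells served as the control of the peak calls is not stated. Read depth is not in the lists and is therefore unknown. The fold of a peak is the authors' own enrichment over the background of its list, and within each list every fold value went with 1 q-value. Folds are therefore used here only to order regions within a list. The lowest subtelomeric fold was 2.75 in the Pt-ttpy, 2.60 in the cisplatin and 3.01 in the untreated list. Peak numbers ran without a gap in both drug lists, up to 18223 for Pt-ttpy and 26121 for cisplatin. In the untreated list they ran to 18049, a length near that of the Pt-ttpy list, but 8848 of these numbers were missing. Between 113 and 333 of the missing numbers would lie at these chromosome ends, judged by the positions of their kept neighbours, which would bring the untreated total to between 368 and 588. Each missing number counts there as 1 region, although the 255 kept regions carried only 232 numbers. Every comparison with the untreated list below carries that limit. More marked chromatin, a more sensitive call and the absence of untreated peak numbers cannot be told apart in these lists.

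Subtelomeric sequence took a small part of each list. It held 2.93% of the Pt-ttpy list (exact 95% interval 2.69 to 3.20), 2.43% of the cisplatin list (2.24 to 2.63) and 2.69% of the untreated list (2.37 to 3.03). The order of the drug lists is not stable: with a -log10 q of at least 5 the shares were 2.76% for Pt-ttpy and 2.90% for cisplatin, and with the 9487 strongest regions of each list 2.73% and 2.77%. These Clopper-Pearson intervals, like those below, cover counting error only and treat neighbouring regions as independent, which they are not. There were 2.00 Pt-ttpy regions and 2.39 cisplatin regions per kept untreated region at these ends, against 1.83 and 2.66 in the rest of chromosomes 1 to 22. There were 0.838 Pt-ttpy regions per cisplatin region at the ends and 0.689 elsewhere. With the missing untreated numbers added, the drug lists held between 0.869 and 1.39 times (Pt-ttpy) and between 1.04 and 1.66 times (cisplatin) the untreated number. The direction for Pt-ttpy against untreated therefore depends on numbers that the deposited list does not show. With only the 9487 strongest regions of each list, the ratios to untreated were 1.02 (Pt-ttpy) and 1.03 (cisplatin). Lists made equal in length can differ there only through their subtelomeric shares. The cut at 9487 fell among regions of equal -log10 q in both drug lists, so that value alone did not decide which regions entered.

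The regions were concentrated on a few ends. In the Pt-ttpy list the 5 busiest ends held 50.7% of the subtelomeric regions, in the cisplatin list 48.9% and in the untreated list 64.3%, while the median end held 7, 9 and 3 regions in that order of lists. The short arm of chromosome 1 (1p) was the busiest in each list. Regions of all 3 lists were found at 33 of the 37 ends, and the short-arm ends of chromosomes 2 and 20 had none in any list. The long-arm end of chromosome 11 had 1 Pt-ttpy region and no other, and the long-arm end of chromosome 20 had 1 Pt-ttpy and 3 cisplatin regions but no untreated region. Short-arm ends held 319 Pt-ttpy regions (62.4%), 358 cisplatin regions (58.7%) and 169 untreated regions (66.3%).

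**Figure D1:**
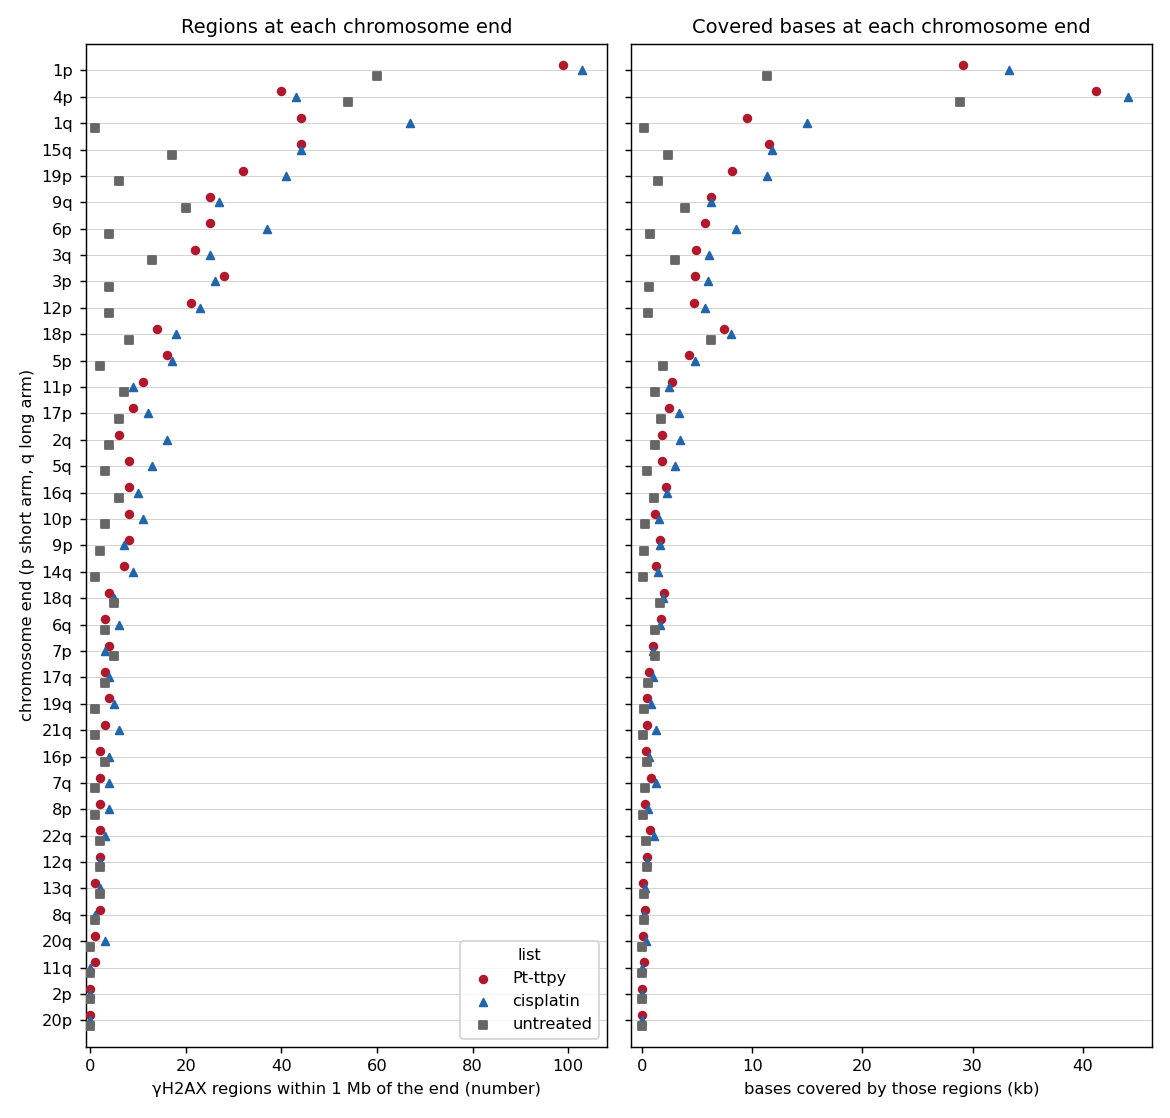
Number of γH2AX regions (left, count) and bases they cover (right, kb) within 1 Mb of each of the 37 chromosome ends, with circles for Pt-ttpy, triangles for cisplatin and squares for untreated, 1 list each. The ends are ordered by the sum of the 3 counts. At 4p the drug lists hold fewer regions (40 for Pt-ttpy and 43 for cisplatin, against 54 for untreated) but cover more bases (41.2 and 44.1 kb, against 28.9 kb).

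The order of the ends was much the same in the drug lists and less so against untreated cells. Across the 37 ends the counts of Pt-ttpy and cisplatin regions had a Spearman correlation of 0.97. The values were 0.74 for Pt-ttpy with untreated and 0.70 for cisplatin with untreated. The ends share the same assembly and repeats in every list, so these correlations are descriptions only. Pt-ttpy regions outnumbered untreated regions at 26 ends, equalled them at 6 and were fewer at 5, namely 4p, 7p, 13q, 16p and 18q. Cisplatin regions outnumbered untreated regions at 28 ends and were fewer at 2, 4p and 7p. Compared with cisplatin, Pt-ttpy regions were more numerous at 6 ends and fewer at 27, and the largest excesses were small, at 3p (28 against 26) and 11p (11 against 9). The largest shortfalls of Pt-ttpy against cisplatin were at 1q (44 against 67) and 6p (25 against 37).

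The end of 1p held 99 Pt-ttpy, 103 cisplatin and 60 untreated regions. Most lay near the tip, with 67 Pt-ttpy, 65 cisplatin and 38 untreated regions within 100 kb of the end. Between 50 and 100 kb alone there were 46, 43 and 28. Of the 1p regions, 48 of 99 Pt-ttpy and 48 of 103 cisplatin regions lay on an untreated region, where over the whole lists 39.3% of Pt-ttpy and 27.2% of cisplatin regions did. A second group lay 800 to 900 kb from the end, with 15 Pt-ttpy, 15 cisplatin and 10 untreated regions. Between 31 and 32 missing untreated numbers would lie at 1p.

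A further group on 1p, singled out after its values were seen, held many of the strongest regions. It had 10 regions in each list and spanned 564479 to 570295 in the Pt-ttpy, 564475 to 570298 in the cisplatin and 564489 to 570293 in the untreated list. The median fold of the 10 regions was 18.3 in the Pt-ttpy list, whose subtelomeric median was 3.78. Its median fold was 24.5 in the cisplatin list (subtelomeric median 3.81) and 22.3 in the untreated list (5.41). Of the 20 strongest subtelomeric regions, 7 Pt-ttpy, 8 cisplatin and 8 untreated regions were in this group. The hg19 sequence at this place is known as a nuclear copy of mitochondrial DNA. The mitochondrial genome itself carried 1 region in each list, from 6 to 16568 with a fold of 25.8 in the Pt-ttpy, from 4 to 16571 with a fold of 34.6 in the cisplatin and from 3 to 16570 with a fold of 54.4 in the untreated list. The part of mitochondrial reads in the 1p group was not tested. Without the group 1p held 89 Pt-ttpy, 93 cisplatin and 50 untreated regions.

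Nearly all regions of 4p formed 1 block at the tip. Within 70 kb of the end lay 39 of 40 Pt-ttpy, 39 of 43 cisplatin and all 54 untreated regions, from 10070 to 68702 in the Pt-ttpy, 10062 to 68800 in the cisplatin and 10067 to 68544 in the untreated list. The block covered 41.1 kb in the Pt-ttpy, 43.5 kb in the cisplatin and 28.9 kb in the untreated list. The drug lists thus had fewer but longer regions there. The widest Pt-ttpy and cisplatin regions at any of the ends were in this block, 9843 bp from 55017 to 64859 after Pt-ttpy and 14342 bp from 54459 to 68800 after cisplatin. Over the stretch of that cisplatin region the untreated list had 10 pieces, the longest 3661 bp. The 54 untreated regions of the block carried only 44 peak numbers. Between 10 and 14 missing untreated numbers would lie at 4p. Folds in the block were moderate, with medians of 4.30, 4.33 and 5.41 for Pt-ttpy, cisplatin and untreated. The highest fold of 4p in each list was at its outermost region near 10 kb, at 8.17, 10.7 and 11.1.

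**Figure D2:**
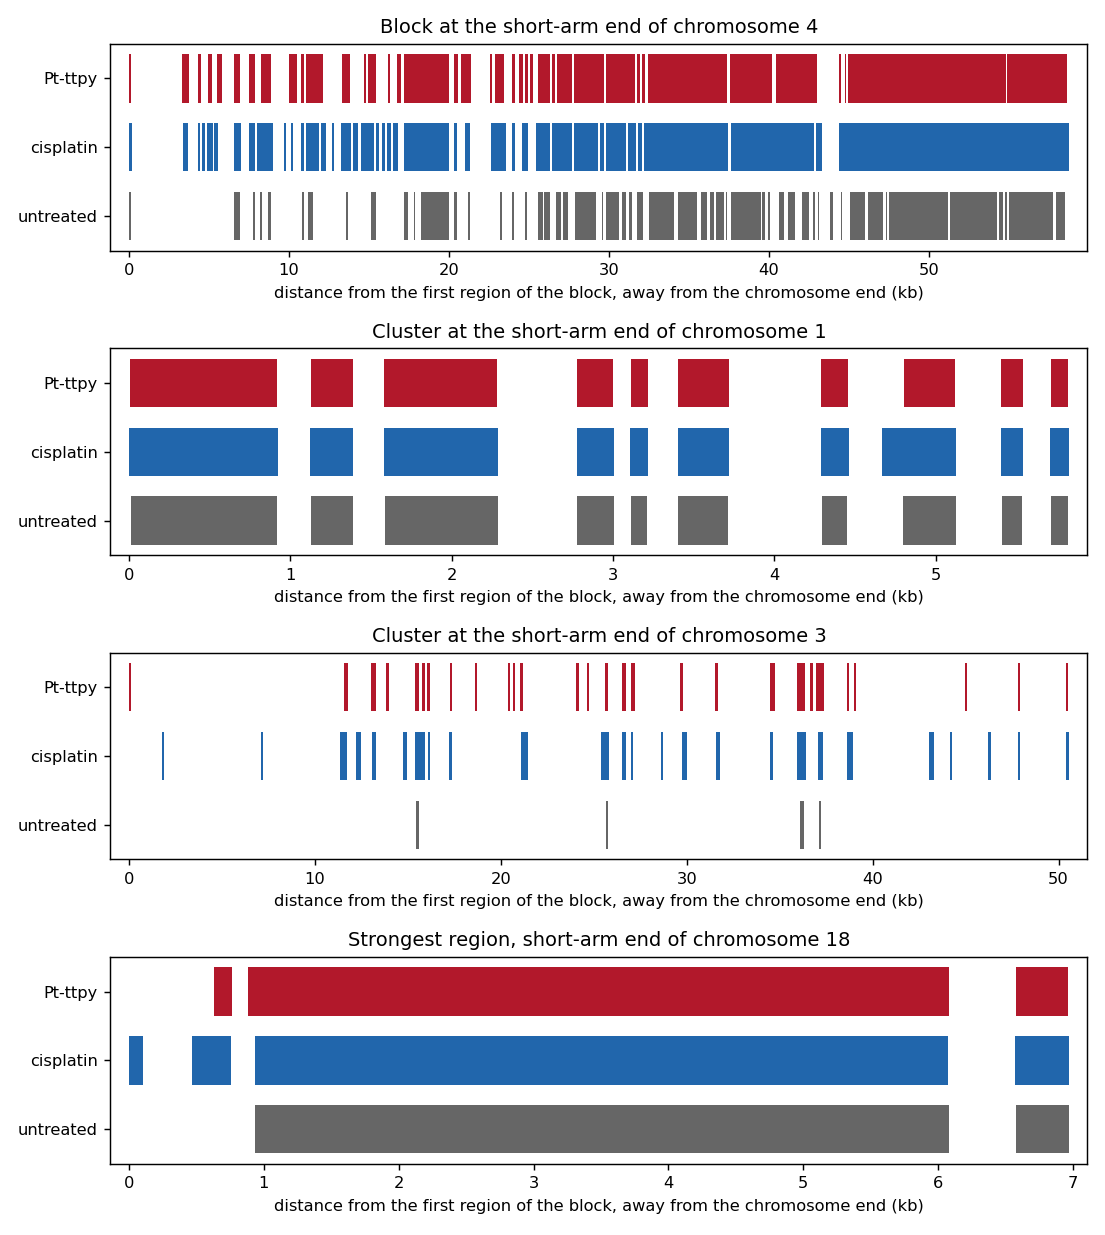
Regions of the Pt-ttpy, cisplatin and untreated lists (rows, top to bottom) at 4 places, drawn as bars to scale against the distance in kb from the first region of the block. The 1p group has 10 pieces in each list, the 4p block covers more bases in the drug lists than in the untreated list, the 3p cluster holds 28 Pt-ttpy, 25 cisplatin and 4 untreated regions, and the long 18p region is nearly the same in all lists.

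The long-arm end of chromosome 1 showed the largest excess of drug regions over kept untreated regions. It held 44 Pt-ttpy, 67 cisplatin and 1 untreated region. The untreated region ran from 248623541 to 248623715 and overlapped regions of both drug lists. The drug regions there were weak, with a median fold of 3.39 for Pt-ttpy and 3.29 for cisplatin, and a highest fold of 4.69 and 5.19. There 24 of the 44 Pt-ttpy regions overlapped the cisplatin list, and 21 of the 67 cisplatin regions overlapped the Pt-ttpy list. Over the whole lists these shares were 69.8% and 47.7%. The drug regions of 1q lay far from the tip, with 38 Pt-ttpy and 50 cisplatin regions beyond 500 kb. Between 0 and 50 missing untreated numbers could lie at this end. Without 1q the counts were 467 Pt-ttpy, 543 cisplatin and 254 untreated regions.

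The short-arm end of chromosome 3 had an isolated cluster, noticed after its values were seen. All 28 Pt-ttpy regions of that end lay between 612762 and 663293. Of 26 cisplatin regions, 25 lay between 614541 and 663305, and all 4 untreated regions lay from 628195 to 650001. No region of any list was called nearer the end. Between 8 and 10 missing untreated numbers would lie at 3p. Folds in the cluster had medians of 3.78 for Pt-ttpy, 3.64 for cisplatin and 3.91 for untreated. Overlap with a cisplatin region was seen for 18 of the 28 Pt-ttpy regions, and with an untreated region for 4, where the shares over the whole Pt-ttpy list are 69.8% and 39.3%.

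At 15q, regions were packed at the tip. All 44 Pt-ttpy regions, 42 of 44 cisplatin regions and all 17 untreated regions lay within 100 kb of the end. The covered length was 11.5 kb for Pt-ttpy, 11.8 kb for cisplatin and 2.4 kb for untreated. Between 14 and 32 missing untreated numbers would lie at 15q. The strongest Pt-ttpy region at 15q, from 102503136 to 102503570, had a fold of 7.92. The cisplatin region at the same place, from 102503140 to 102503932, had a fold of 4.50, and both untreated pieces there had a fold of 4.81. The strongest cisplatin region lay further in, from 102485441 to 102486151, with a fold of 7.10. The strongest untreated value, a fold of 7.22, was tied between 2 pieces within it, from 102485533 to 102485700 and from 102485904 to 102486026. Each fold ranks a region within its own list only.

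At 19p there were 32 Pt-ttpy, 41 cisplatin and 6 untreated regions, and 31, 39 and 6 of these lay within 200 kb of the end. The strongest region of both drug lists there was at 309687 to 309828 (fold 7.01) for Pt-ttpy and 309697 to 309955 (fold 6.06) for cisplatin, with no untreated region. At 6p there were 25 Pt-ttpy, 37 cisplatin and 4 untreated regions with a median distance of 272, 276 and 274 kb. Missing untreated numbers would add between 11 and 29 at 19p and between 11 and 15 at 6p. The strongest 6p region was at 371776 to 372341 in the Pt-ttpy list (fold 5.33) and at 371792 to 372186 in the untreated list (fold 5.11), and these overlap. The strongest cisplatin region of that end was at 371314 to 371651, with a fold of 5.02, beside them. Both drug lists had both places, with a Pt-ttpy region at 371306 to 371609 (fold 4.69) and a cisplatin region at 371812 to 372287 (fold 4.67).

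At a few ends the counts with drug were nearer to those without. At 9q there were 25 Pt-ttpy, 27 cisplatin and 20 untreated regions, and at 3q 22, 25 and 13. Missing untreated numbers would add between 2 and 10 at 9q and between 7 and 13 at 3q. The strongest 9q region lay at the inner limit of the 1 Mb belt, from 140222418 to 140222928 in the Pt-ttpy list (fold 15.7), 140222177 to 140222931 in the cisplatin list (fold 17) and 140222685 to 140222929 in the untreated list (fold 18.6). At 3q the strongest region ran from 197895527 to 197896298 (Pt-ttpy, fold 12.2), 197895512 to 197896291 (cisplatin, fold 14.2) and 197895564 to 197896293 (untreated, fold 12.3). At 7p the few regions, 4 Pt-ttpy, 3 cisplatin and 5 untreated, were strong, with median folds of 18.4, 22.7 and 23.2. The end of 12p differed from these, with 21 Pt-ttpy, 23 cisplatin and 4 untreated regions, and 14, 14 and 2 of these lay within 100 kb. Between 5 and 11 missing untreated numbers would lie at 12p.

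Within the 1 Mb belt the regions crowded towards the tips, largely through a few ends. Within 100 kb lay 230 Pt-ttpy, 253 cisplatin and 134 untreated regions. Of these, 1p held 67, 65 and 38, 4p held 39, 39 and 54, and 15q held 44, 42 and 17. The median distance to the end was 125 kb for Pt-ttpy, 148 kb for cisplatin and 89.8 kb for untreated regions. Of the regions, 45.0% (40.6 to 49.4) of Pt-ttpy, 41.5% (37.5 to 45.5) of cisplatin and 52.5% (46.2 to 58.8) of untreated regions lay within 100 kb. The higher untreated share rested on 4p, where all 54 untreated pieces lay within 100 kb. Without 4p, 40.6% (36.1 to 45.1) of Pt-ttpy, 37.7% (33.7 to 41.9) of cisplatin and 39.8% (33.0 to 46.9) of untreated regions lay within 100 kb, and these intervals overlap. The median distances without 4p were 155 kb for Pt-ttpy, 165 kb for cisplatin and 150 kb for untreated regions. With a -log10 q of at least 5 the shares within 100 kb were 44.0%, 43.2% and 46.4%, and the median distances 131, 130 and 119 kb. From 300 to 500 kb there were few regions in any list, with 12 and 8 Pt-ttpy, 16 and 18 cisplatin, and 2 and 5 untreated regions in the steps of 100 kb. A second concentration of the drug lists lay between 600 and 700 kb, with 59 Pt-ttpy and 59 cisplatin regions. The untreated list had 14 regions there, fewer than from 500 to 600 kb (18) or from 800 to 900 kb (16). Both of those steps held 10 untreated regions of 1p. Without 1p the untreated counts were 8 from 500 to 600 kb, 14 from 600 to 700 kb and 6 from 800 to 900 kb. The step from 600 to 700 kb then held the most untreated regions beyond 200 kb too. Between 600 and 700 kb, 3p and 1q supplied 28 and 23 Pt-ttpy regions, 25 and 25 cisplatin regions and 4 and 1 untreated regions.

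**Figure D3:**
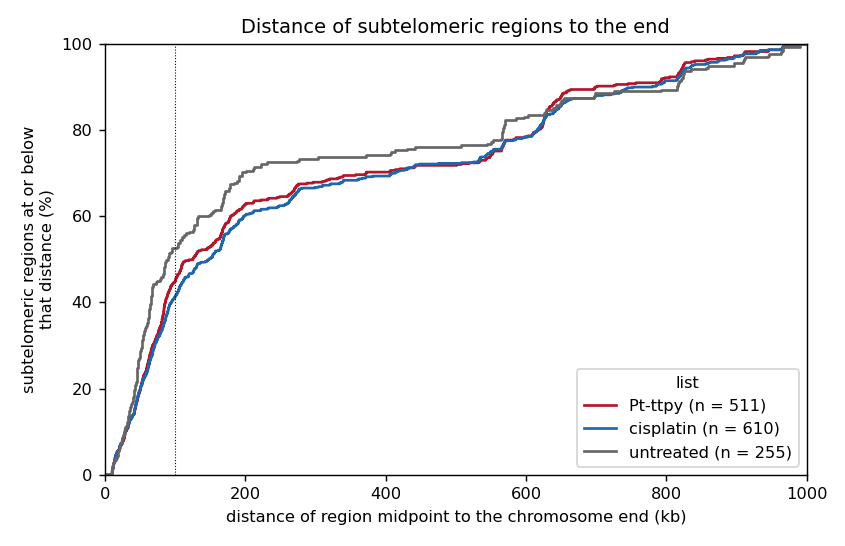
Cumulative percent of subtelomeric regions (vertical axis) by the distance of their midpoint from the chromosome end in kb (horizontal axis) for the Pt-ttpy (n = 511), cisplatin (n = 610) and untreated (n = 255) lists. The dotted line is at 100 kb, below which lie 45.0%, 41.5% and 52.5% of the regions.

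Only a few ends carried regions within 20 kb of the end of the hg19 coordinates. Distance was not measured from the first sequenced base, so which of the other ends have sequence within 20 kb was not examined. At 6p and 16q, for example, the outermost Pt-ttpy region lay 61.3 and 61.4 kb from the end. Within 20 kb there were 29 Pt-ttpy, 35 cisplatin and 14 untreated regions, on 10, 10 and 6 ends. The 6 ends of the untreated list were 1p, 4p, 5p, 12q, 15q and 18p, and both drug lists had regions on each of them. The drug lists added 1q, 5q, 19q and 21q. A cisplatin region overlapped 27 of the 29 Pt-ttpy regions (93.1%, against 69.8% over the whole list). An untreated region overlapped 12 (41.4%), which is near the whole-list share of 39.3%. The outermost region of 12q, from 133841519 to 133841882 in the Pt-ttpy, 133841516 to 133841884 in the cisplatin and 133841513 to 133841887 in the untreated list, had folds of 19.9, 23.2 and 31.6. By -log10 q it ranked 191 of 17416 in the Pt-ttpy, 213 of 25132 in the cisplatin and 257 of 9487 in the untreated list. The outermost 21q region was at 48117716 to 48117883 (Pt-ttpy, fold 3.26) and 48117739 to 48118071 (cisplatin, fold 3.46). At 18p the outermost region, near 10 kb, had a fold of 8.05 in the Pt-ttpy, 7.79 in the cisplatin and 9.92 in the untreated list.

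The strongest region of these ends was on 18p and was the same place in each list. It ran from 106445 to 111643 in the Pt-ttpy, 106497 to 111638 in the cisplatin and 106503 to 111643 in the untreated list. Its -log10 q was the highest of each list, a value that 33 Pt-ttpy, 27 cisplatin and 18 untreated regions on chromosomes 1 to 22 shared. Just beyond it a narrower region ran from 112143 to 112530 (Pt-ttpy, fold 23.8), 112140 to 112534 (cisplatin, fold 29.6) and 112144 to 112534 (untreated, fold 41.5). On 7p a narrow region lay from 20290 to 20500 in the Pt-ttpy, 20291 to 20534 in the cisplatin and 20288 to 20493 in the untreated list, with folds of 22.4, 28.2 and 37.9. The region on 12p from 95383 to 95729 (Pt-ttpy, fold 20.6), 95382 to 95731 (cisplatin, fold 25.8) and 95385 to 95731 (untreated, fold 40.0) was the fourth strongest of the untreated subtelomeric regions. A further 7p region ran from 945286 to 945453 (Pt-ttpy, fold 19), 945282 to 945453 (cisplatin, fold 22.5) and 945284 to 945459 (untreated, fold 39.4).

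The regions were short in every list. The median width was 182 bp for Pt-ttpy (quartiles 128 and 306), 188.5 bp for cisplatin (127 and 311) and 152 bp for untreated (108 and 286), all below the sonicated fragment size of 200 to 700 bp. In the rest of chromosomes 1 to 22 the medians were 185, 169 and 165 bp. Regions of 1 kb or more numbered 18, 16 and 10, and 47 untreated regions were under 100 bp, while no drug region was. Joined across the lists wherever they shared a base, the regions made 739 places. At 135 of these, with exactly 1 region of each list, the starts differed by a median of 17 bp between Pt-ttpy and untreated and by 20 bp between cisplatin and untreated. The Pt-ttpy region was wider than the untreated region at 112 of the 135, and the median difference over all 135 was 30 bp. The cisplatin region was wider than the untreated one at 114, with a median difference of 39 bp over all 135. In the untreated list 68 of the 255 subtelomeric regions had a summit (highest point) outside their own bounds, and 42 shared a peak number. In the drug lists both numbers were 0. The untreated widths may therefore be those of parts of called peaks. Its share in the width differences, here and at 4p, was not tested. Between the drugs, the Pt-ttpy region was wider at 54 and narrower at 80, with a median difference of -4 bp.

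Most untreated regions were also called after both drugs. Of the 739 places, 176 were in all 3 lists, 164 in both drug lists only, 6 in the Pt-ttpy and untreated lists only and 8 in the cisplatin and untreated lists only. A further 131 were in the Pt-ttpy list alone, 243 in the cisplatin list alone and 11 in the untreated list alone. Of the untreated subtelomeric regions 90.6% (86.3 to 93.9) lay on a Pt-ttpy region, against 95.1% over the whole untreated list, and 91.4% (87.2 to 94.5) on a cisplatin region, against 96.0%. These shares were slightly below the 95.2% and 96.2% for the rest of chromosomes 1 to 22. The intervals lie below those values but treat split and neighbouring pieces as independent. In the other direction, 36.6% (32.4 to 40.9) of Pt-ttpy regions lay on an untreated region, against 39.3% over the whole Pt-ttpy list. For cisplatin it was 31.5% (27.8 to 35.3), against 27.2%. With the 9487 strongest regions of each list these shares were 59.8% for Pt-ttpy and 60.5% for cisplatin, and with 50% of a region covered the cisplatin share was 20.8%. No test of these differences was made, since neighbouring regions are not independent.

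The drug lists overlapped more at these ends than elsewhere in the cisplatin direction. Of the Pt-ttpy subtelomeric regions 73.2% (69.1 to 77.0) lay on a cisplatin region, against 69.8% over the whole list. Of the cisplatin subtelomeric regions 58.7% (54.7 to 62.6) lay on a Pt-ttpy region, against 47.7% over the whole list. The lists differ in length, so each share has its own base. Among regions with a -log10 q of at least 5, which are 53.8% of Pt-ttpy, 55.7% of cisplatin and 71.8% of untreated subtelomeric regions against 57.3%, 46.6% and 73.6% of the whole lists, the first share was 90.9% at the ends and 90.2% in the rest. The second was 78.2% at the ends and 80.4% in the rest. The excess of the cisplatin share was thus not seen among the stronger cisplatin regions. The 4q and 10q ends stood higher, with 87.3% of 552 Pt-ttpy regions on cisplatin and 81.6% of 582 cisplatin regions on Pt-ttpy.

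**Figure D4:**
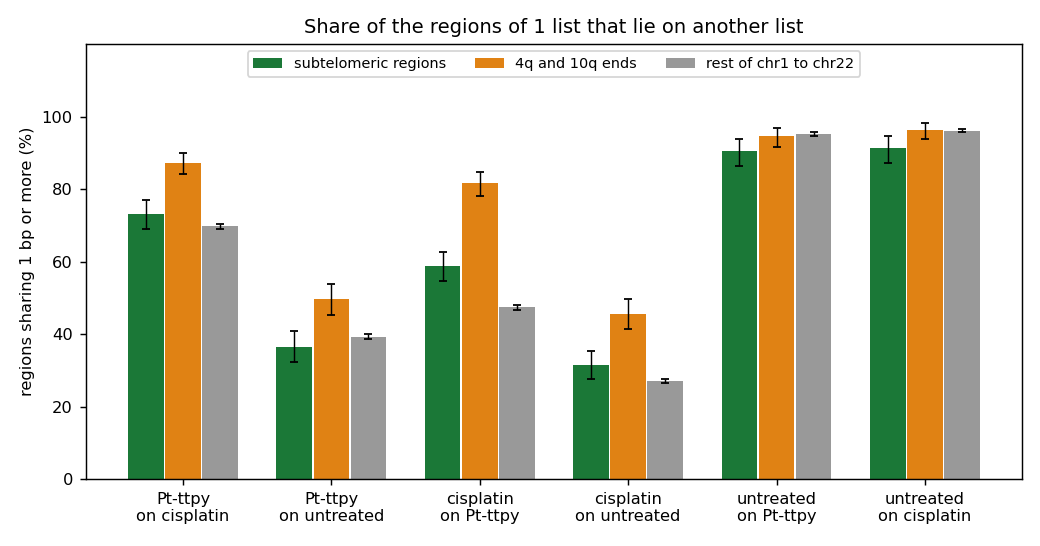
Percent of the regions of 1 list that share 1 bp or more with another list (vertical axis), for subtelomeric regions, for the 4q and 10q ends and for the rest of chromosomes 1 to 22, with exact 95% intervals as bars of counting error. For cisplatin on Pt-ttpy the subtelomeric share is 58.7% against 47.4% in the rest of chromosomes 1 to 22.

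Regions found in all lists were the strong ones. The 181 Pt-ttpy regions on both other lists had a median fold of 5.46 and a median width of 308 bp, the 193 on cisplatin alone 3.65 and 164 bp, and the 131 on neither 3.26 and 136 bp. The 183 cisplatin regions on both other lists had a median fold of 5.54 and a width of 327 bp, the 175 on Pt-ttpy alone 3.81 and 205 bp, and the 243 on neither 3.29 and 143 bp. Among regions of 1 drug list alone, the highest fold was 5.59 for Pt-ttpy and 6.23 for cisplatin. Regions on neither other list were 25.6% of Pt-ttpy and 39.8% of cisplatin subtelomeric regions, against 29.4% and 51.5% of the whole lists. In the untreated list they were 11 regions (4.31%), against 1.81% of the whole list. The Pt-ttpy regions on neither other list were spread over 25 ends, led by 1q with 20, 1p with 18 and 19p with 11. The cisplatin regions on neither were spread over 30 ends, led by 1q with 46, 1p with 27, and 19p and 6p with 21 each. Within 100 kb of the end lay 45 of the 131 Pt-ttpy regions on neither list and, for cisplatin, 78 of 243. At the 176 places of all lists the order of folds was alike, with Spearman correlations of 0.87 between the drugs, 0.80 between Pt-ttpy and untreated and 0.79 between cisplatin and untreated. These places share sequence and mapping in every list.

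**Figure D5:**
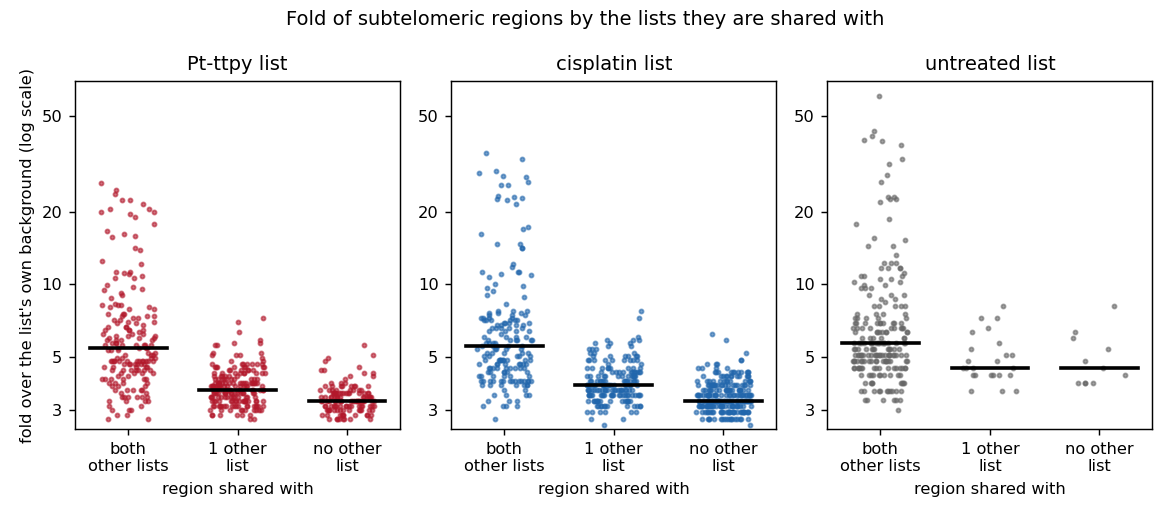
Fold of each subtelomeric region over its own list's background (log axis) by whether it is shared with both, 1 or none of the other lists, in panels for Pt-ttpy, cisplatin and untreated, with lines at the medians. Folds of 10 or more occur only among regions shared with both other lists.

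Neighbouring regions were close. Another region of the same list lay within 1 kb for 69.1% of Pt-ttpy subtelomeric regions, 63.8% of those after cisplatin and 65.1% of untreated ones. In the rest of chromosomes 1 to 22 this held for 11835 of 16905 Pt-ttpy regions, and for 60.6% of cisplatin and 80.3% of untreated regions. At the 4q and 10q ends it was 93.5%, 95.7% and 85.7%. When regions closer than 1 kb were joined, 249 Pt-ttpy, 317 cisplatin and 128 untreated regions remained at the ends.

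Ends were also described by listed gene families they carry, not all of them copied between ends. VIPR2 was found only at 7q, and DOC2B and RPH3AL only at 17p, and each counts as 1 family below. Genes were placed by their order in the RefSeq table of GRCh38, since no annotation of hg19 was at hand, so no region was assigned to a gene. Among the outermost 40 entries of each end, 15 ends had members of 3 or more of 19 listed families. These include WASH genes, which encode part of an actin-regulating complex, the OR4F olfactory receptors, the TUBB8 tubulins and the pseudogenes DDX11L and RPL23AP. These 15 ends held a median of 11 Pt-ttpy, 16 cisplatin and 4 untreated regions. The 15 ends with 1 or 2 families held a median of 4, 6 and 3, and the 7 ends with none a median of 2, 1 and 1. The end of 1p, with DDX11L1, WASH7P, MIR1302-2, FAM138A, OR4F5, SEPTIN14P18 and CICP27, had the most families, and 2p and 20p, without regions, had none of them. The block end 4p had only ZNF595 and ZNF718, both zinc finger genes, and 5p had none of the families but 16 Pt-ttpy, 17 cisplatin and 2 untreated regions. The busy ends 1q and 3p had 1 family each. In contrast 8p (2 Pt-ttpy, 4 cisplatin and 1 untreated region), 16p (2, 4 and 3) and 20q (1, 3 and 0) had few regions but 3, 4 and 3 families. No test of this relation was made, and the families were chosen with earlier results of these data known.

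The last region inside the 1 Mb limit was on 9q in each list, at 991 kb from the end. The first region outside at these ends lay at 1014 kb on 1q in the Pt-ttpy, 1003 kb on 16p in the cisplatin and 1017 kb on 11p in the untreated list, with folds of 3.13, 5.02 and 4.51.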

How the data were processed

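Chromatin of A2780 cells immunoprecipitated for γH2AX was sonicated to 200 to 700 bp and sequenced as single reads of 50 bases, per the labels' protocols. The tools named by the submitters' processing notes are MACS2 2.1.0 and BWA 0.7.5, with the hg19 build. How peaks were called, against which control, and whether replicates were pooled is not stated. The values the authors deposited per peak include a fold enrichment (ratio), a -log10 q-value and a score. The deposited score was found to be the -log10 q times 10 with decimals dropped, and was not used further. Peaks came as 1 list per group, tied by the labels to both of its samples. Chromosome lengths of hg19 were entered from general knowledge, and no region lay beyond them.

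From the lists were computed, with scipy 1.17.1, pandas 2.3.3 and numpy 2.4.6 under Python 3.11.15 (plots by matplotlib 3.10.9), the midpoint's distance to the nearer end, widths, covered bases, and overlap (1 bp or more). Shares carry exact Clopper-Pearson 95% intervals for counting error. There is no test between lists. The code was tested on simulated regions. The members, gene families and named regions were chosen with earlier results of these data known. Named were, in each list, the 5 regions with the highest -log10 q, the widest, the outermost on ends with a region within 20 kb, the strongest at the 8 busiest ends, ends with no region and ends that differed most between lists. Other named regions were chosen after their values were seen. No sequence is shown because no hg19 genome was used here.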

Additional observations from a re-analysis of the deposited data

How the results depend on the processing

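No paired analysis was possible because both replicates of a group share 1 deposited list, and leaving out a replicate was not possible for the same reason. Measuring distance from the first sequenced base was not run, since no genome of the build was used.

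With a -log10 q of at least 5 the counts were 275 Pt-ttpy and 340 cisplatin regions, the cisplatin share of its list was 2.90% (Pt-ttpy 2.76%), median widths were 229 (Pt-ttpy), 231 (cisplatin) and 186 bp (untreated), and the count ratios to untreated were 1.50 (Pt-ttpy) and 1.86 (cisplatin). Overlaps, with both lists cut, were 79.6% (Pt-ttpy on cisplatin), 48.4% (Pt-ttpy on untreated), 64.4% (cisplatin on Pt-ttpy) and 41.5% (cisplatin on untreated). With regions closer than 1 kb merged, the counts were 249 Pt-ttpy, 317 cisplatin and 128 untreated, the shares 3.34% (Pt-ttpy) and 3.90% (untreated), and 42.2% of Pt-ttpy lay on untreated. With 9487 top regions from each list, 259 Pt-ttpy and 263 cisplatin regions remained (shares 2.73% for Pt-ttpy and 2.77% for cisplatin), the ratios were 1.02 (Pt-ttpy to untreated), 1.03 (cisplatin to untreated) and 0.985 (Pt-ttpy to cisplatin). The overlaps were then 59.8% (Pt-ttpy on untreated), 71.5% (cisplatin on Pt-ttpy), 60.5% (cisplatin on untreated), 77.6% (untreated on Pt-ttpy) and 78.0% (untreated on cisplatin). 

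Within 500 kb of the ends the shares were 2.11% (Pt-ttpy), 1.75% (cisplatin) and 2.04% (untreated), and without 1p 2.38%, 2.03% and 2.07%, fewer by construction. With 50% of a region covered, overlaps were 64.6% (Pt-ttpy on cisplatin), 26.2% (Pt-ttpy on untreated), 49.7% (cisplatin on Pt-ttpy) and 20.8% (cisplatin on untreated). Within 1 kb they were 89.6%, 54.4%, 77.2% and 46.7% in that order, then 96.9% (untreated on Pt-ttpy) and 97.6% (untreated on cisplatin). Missing untreated numbers at the same end made the ratios to untreated 1.39 (Pt-ttpy) and 1.66 (cisplatin). Chosen after seeing the data, all possible missing numbers made them 0.869 and 1.04, and leaving out 4p 2.34 and 2.82. Without 4p the share within 100 kb was 40.6% (Pt-ttpy) and 39.8% (untreated), and the untreated median distance was 150 kb. Leaving out 1q or using covered bases moved no value beyond its interval, or count beyond 1.5 times.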

Other observations

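Chromosome X was outside the rule used here. Within 1 Mb of its short-arm end, where X and Y share the pseudoautosomal region, there were 3 Pt-ttpy, 2 cisplatin and 2 untreated regions, and at its long-arm end there was 1 region in each list, of 373 Pt-ttpy, 539 cisplatin and 222 untreated regions on the chromosome.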
